A study of Mus musculus with 16 samples.

Results

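Immediate early genes are transcribed within minutes of a stimulus without new protein synthesis, from enhancers and promoters that depend on the acetyltransferases CBP and P300, and their transcripts decay fast. Fos and Jun family proteins pair through leucine zippers to form AP-1, which binds DNA at TRE and CRE sites, and the same genes are known to rise while tissue is being dissociated. The 10 members described here are 5 AP-1 subunits (Fos, Fosb, Jun, Junb and Jund), the zinc finger factor Egr1, the stress-induced bZIP factor Atf3, the nuclear regulator Ier2, and 2 genes that shut the response off, the MAP kinase phosphatase Dusp1 and the mRNA decay factor Zfp36 (tristetraprolin). They were chosen by symbol and each was listed once among 32286 features in all 16 libraries, as Fos ENSMUSG00000021250, Fosb ENSMUSG00000003545, Jun ENSMUSG00000052684, Junb ENSMUSG00000052837, Jund ENSMUSG00000071076, Egr1 ENSMUSG00000038418, Atf3 ENSMUSG00000026628, Ier2 ENSMUSG00000053560, Dusp1 ENSMUSG00000024190 and Zfp36 ENSMUSG00000044786.

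The study treated BALB/c mice carrying 2208L, a transplantable Trp53-null mammary tumor rich in neutrophils, with IACS-70654, an inhibitor of the bromodomain of CBP and P300. Single-cell libraries were made from tumors (1 library for each of vehicle, IACS-70654 alone, anti-PD-1 alone and their combination) and from 2 bone marrow (BM) sorts, CD45+Ter119- cells and lineage- c-Kit+ CD45+ cells. Each sort had 2 libraries per group: WT mice without a tumor (labelled ctrl), 2208L tumor–bearing mice given vehicle, and 2208L tumor–bearing mice given IACS-70654. GEO's record gives 7 days of treatment, 3 days on and 2 days off, whereas the published text gives 6 days for the marrow mice. Cells of 3 mice were pooled, for each group according to that record and for each library according to the methods text. If the 2 libraries of a group come from 1 pool, p-values measure only the spread between libraries. The model is a single transplanted tumor line, and the WT mice differ from the vehicle mice in tumor and in dosing. The 2 descriptions differ on dissociation too: GEO's labels give collagenase A for 45 minutes at 37 °C for all samples, whereas the methods text gives a collagenase digestion of 2 hours for tumors, and harvest in buffer with red cell lysis for BM. Which of them applied is not settled here.

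The libraries held 2062 to 8205 barcodes and 15590289 to 68415534 unique molecular identifiers (UMIs), with medians of 4113 to 9512 UMIs per cell kept. No barcode was shared between libraries of a sort. Cells were clustered within each sort and classes were named from marker lists; the names below stand for cells like those of that name. Since those lists set the names, marker levels describe a class and do not check its label: the summed level of 7 megakaryocyte markers was 4360 to 6447 CPM (a gene's share of all UMIs of the class in a library, on the usual CPM scale) in megakaryocyte progenitors and at most 186 CPM in any other c-Kit+ class. Clusters left without a name held 10.8% to 22.3% of c-Kit+ cells, 0.986% to 2.73% of CD45+ cells and 2.34% to 3.97% of tumor cells of all types. Levels are in CPM throughout and were compared between cells for the same gene, never between genes.

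Promoter sequence in the RefSeq table (GRCm38.p6) was matched for 8 members, Egr1 and Ier2 having none in it. Searched on both strands over the 250 bases before the annotated start, 3 members held a full-length motif. The stretches are shown because Jun and Dusp1 carried several of the differences below and because CRE and CArG boxes are the textbook inputs of this gene class. Capitals mark the motif, and positions count back from the start.

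Jun, chr4:95052240-95052287, minus strand, TGACATCA from -45 to -38: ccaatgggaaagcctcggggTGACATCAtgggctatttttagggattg
Dusp1, chr17:26508588-26508635, minus strand, TGACGTCA (CRE) from -143 to -136: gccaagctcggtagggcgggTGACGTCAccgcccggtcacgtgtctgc
Zfp36, chr7:28379257-28379306, minus strand, CArG box from -58 to -49: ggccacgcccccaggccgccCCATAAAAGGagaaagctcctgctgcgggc

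The shorter core TGACG, read on either strand and overlapping the CRE, was present in 5 members (Fos, Fosb, Junb, Atf3 and Dusp1). Fosb and Junb are shown because their levels moved in opposite directions in immature neutrophils after IACS-70654.

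Fosb, chr7:19310081-19310125, minus strand, TGACG from -60 to -56: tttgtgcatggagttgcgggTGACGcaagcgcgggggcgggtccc
Junb, chr8:84978830-84978874, minus strand, TGACG from -106 to -102: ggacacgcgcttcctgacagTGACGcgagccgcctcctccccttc

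Of 32851 promoters of this length, 1.55% held TGACGTCA, 2.93% TGACATCA or its complement TGATGTCA, 1.47% a CArG box, 6.75% the AP-1 site TGANTCA and 17.8% TGACG or CGTCA. These matches are letters in a window and say nothing of binding.

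Most members were most abundant in tumors, and 7 of the 10 had their highest mean there in tumor-associated neutrophils (TANs). How many of all genes had their highest mean in TANs is not given here, so this count has no background. Over the 4 tumor libraries, Fos ranged from 3089 to 4024 CPM in TANs (mean 3488), from 1556 to 2100 in tumor cells, from 1377 to 1885 in macrophages and monocytes (TAMs) and from 597 to 1161 in T and NK cells. The ranges of TANs and tumor cells did not overlap, whereas those of tumor cells and TAMs did. TANs also ranked first for Jun (1447 to 1773 CPM), Junb (6804 to 7277), Egr1 (2085 to 3217), Ier2 (1143 to 1442), Dusp1 (1723 to 2307) and Zfp36 (908 to 1271), with no overlap with the next class for Junb, Egr1, Ier2, Dusp1 and Zfp36 and with overlap for Jun. By mean they ranked last for Fosb (292 to 521 CPM), overlapping T and NK cells and TAMs. Fosb had its highest mean in tumor cells (591 to 800), which overlapped TAMs (452 to 650) and T and NK cells (207 to 630). Atf3 was highest in TAMs (986 to 1149), overlapping tumor cells (720 to 1134). Jund was 1083 to 1651 CPM in TANs, which ranked behind T and NK cells (1351 to 2060) and tumor cells (1538 to 1784) and overlapped both.

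Mature neutrophils of WT marrow had lower levels of all 10 members than TANs, without overlap. The share of all genes with that pattern is not given here, so it cannot be read as particular to the members. Fos was 276 to 325 CPM in them and was highest in CD45+ monocytes (433 to 469) and in c-Kit+ plasma cells (410 to 595). Mature neutrophils ranked first of 9 CD45+ classes for Junb (824 to 843 CPM), Dusp1 (354 to 361) and Zfp36 (541 to 573), and last for Jun (59.8 to 64.7) and Fosb (6.74 to 7.36). Basophils and mast cells ranked first for Jun (1235 to 1653 CPM, a range that overlaps TANs and tumor cells), Fosb (285 to 364), Egr1 (311 to 346) and Ier2 (623 to 802), and monocytes for Atf3 (70.8 to 86.5). Along the neutrophil series in WT marrow, Fos rose from 40.0 to 42.7 CPM in early cells through 89.2 to 90.5 in immature cells, while Jun went the other way, from 136 to 142 CPM through 96.6 to 115. Among c-Kit+ classes, erythroid progenitors were lowest by mean for 9 members, all but Atf3, as for Fos at 20.8 to 22.4 CPM. For Egr1 they overlapped neutrophil progenitors. How many of all genes were lowest in erythroid progenitors is not given here either. Tumor and marrow differed in tissue and Cell Ranger version, and perhaps in dissociation (not settled above), which cannot be told apart here. The summed level of 13 heat shock genes, not checked as a measure of handling, was 1652 to 2248 CPM in TANs and 618 to 789 CPM in mature marrow neutrophils. It reached 9218 to 9503 CPM in erythroid progenitors, where the members were low. Its part in the levels was not tested.

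**Figure D1:**
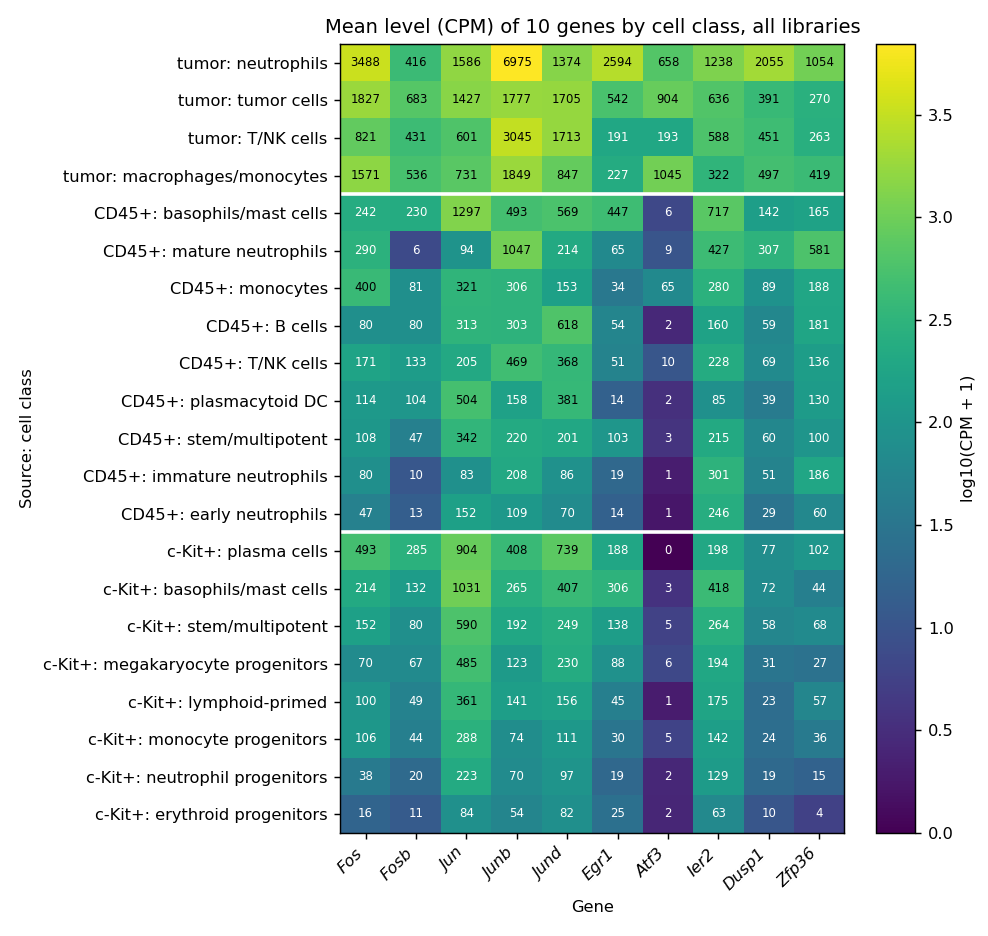
Mean CPM of the 10 genes (columns) in each cell class (rows), printed in the cells and colored by log10(CPM + 1); tumor rows average 4 libraries and marrow rows all 6 libraries of WT, vehicle and IACS-70654 mice. Neutrophils of the tumor carry the highest level of Fos (3488 CPM), Junb (6975) and Egr1 (2594), and erythroid progenitors hold the lowest value for Fos, Junb, Ier2, Dusp1 and Zfp36.

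Counted per cell, after thinning each cell to 1000 UMIs so that depth was equal, TANs held UMIs of 5.98 to 6.21 of the 10 members, tumor cells 4.82 to 5.21, TAMs 4.21 to 4.67 and tumor T and NK cells 3.37 to 3.95. Marrow classes ran from 0.331 to 0.373 members per cell in erythroid progenitors to 2.46 to 3.41 in CD45+ basophils and mast cells, with 2.24 to 2.54 in mature neutrophils. Thinning left out 46 to 110 shallower TANs per library. The median depth of TANs was 1201 to 1344 UMIs, against 12878 to 14138 in erythroid progenitors. Across 118 sums of a class in a library, the 45 pairs of members correlated on the log2(CPM + 1) scale with a median Pearson r of 0.72 (0.26 to 0.94). Over the 102 marrow sums alone the median was 0.50 and 43 pairs stayed above 0. The closest pair over all sums was Junb and Dusp1. These sums share libraries and depth, so the coefficients are descriptions.

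Outside the members, the 5 genes whose pattern across the 118 sums was most like their mean were Btg2 (an antiproliferative early gene, r = 0.89), Ubb (polyubiquitin, 0.87), Pnrc1 (a nuclear receptor coactivator, 0.87), Sqstm1 (the autophagy receptor p62, 0.86) and Skil (a brake on TGF-β signaling, 0.84). Over marrow sums alone their coefficients were 0.82, 0.74, 0.71, 0.77 and 0.58.

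The first marrow comparison asked how a tumor in the mammary gland was accompanied by changes in these genes in BM, and the second how IACS-70654 changed them in tumor-bearing mice. Each class was fitted over its 6 libraries with edgeR's quasi-likelihood test on summed UMI counts, and a gene was called at a Benjamini-Hochberg adjusted p under 0.01 with a log2 change over 0.5 in size. Of the 320 tests of a member in a class, 57 were called. Thinning to 1000 UMIs per cell, which leaves far fewer UMIs, ended 32 of these calls, and other settings that ended a call are named beside it. Some settings also added calls, which are not named: 8 with library totals, 10 at a clustering resolution of 0.5 and 6 with no filter on low counts. In CD45+ marrow, vehicle compared with WT mice gave 10 calls higher (1.73% of all gene and class tests were called higher) and 5 lower (1.32%), and IACS-70654 compared with vehicle gave 6 higher (5.78%) and 10 lower (5.02%). In c-Kit+ marrow, the first comparison gave 1 higher (0.673%) and 12 lower (0.402%), and the second 8 higher (2.51%) and 5 lower (3.74%). Scaling by library totals changed the balance, to 6 higher and 8 lower with the tumor and 10 higher and 3 lower with treatment in CD45+ marrow, and to 9 higher and 3 lower with treatment in c-Kit+ marrow. Both comparisons use the same vehicle libraries, so values of the 3 groups are set side by side and no relation between the comparisons was computed.

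In mature neutrophils, IACS-70654 was accompanied by a rise in Jun. Jun, the DNA-binding partner of Fos in AP-1, stood at 59.8 and 64.7 CPM in the WT libraries, 43.3 and 47.3 in the vehicle libraries and 175 and 172 in the IACS-70654 libraries. All of the treated libraries lay above all of the others. The log2 change from vehicle was 1.66 (SE 0.05, 3.17-fold, edgeR adjusted p = 3.964e-85), and it stayed called under all 14 alternative settings, from 1.38 to 1.93.

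Junb, a Jun relative that often restrains it, was instead highest under vehicle, with 843 and 824 CPM in WT libraries, 1228 and 1206 under vehicle and 1100 and 1083 after IACS-70654. The rise with the tumor was 0.66 on the log2 scale (SE 0.02, edgeR adjusted p = 2.262e-72). Egr1 was 57.3 and 40.7 CPM in WT libraries and 74.0 and 75.1 under vehicle, a log2 change of 0.72 (SE 0.08), and was 69.9 and 70.9 CPM after IACS-70654.

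Fosb was rare, at 7.36 and 6.74 CPM in WT libraries, 3.72 and 4.07 under vehicle and 7.28 and 9.22 after IACS-70654. The groups did not overlap for either comparison, and both were called (log2 change -0.73, SE 0.23, and 0.82, SE 0.19), but the first lost its call without any 1 of the 6 libraries (edgeR adjusted p from 0.0146 to 0.116), with DESeq2 and with no filter on low counts, and the second without IACS-70654 library 2 (0.62, edgeR adjusted p = 0.0424) and with DESeq2. Dusp1, which dephosphorylates the kinases upstream of AP-1, was 361 and 354 CPM in WT libraries and 243 and 245 under vehicle and missed only the fold threshold (log2 change -0.44, edgeR adjusted p = 9.291e-26).

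Altogether 3 of 10 members were called between vehicle and WT mature neutrophils (9.34% of all genes tested) and 2 of 10 between IACS-70654 and vehicle (19.7%). The second share is close to the background, so it says nothing particular about the members as a group. The median log2 change of the 10 members under IACS-70654 was -0.05, against 0.00 for all genes.

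**Figure D2:**
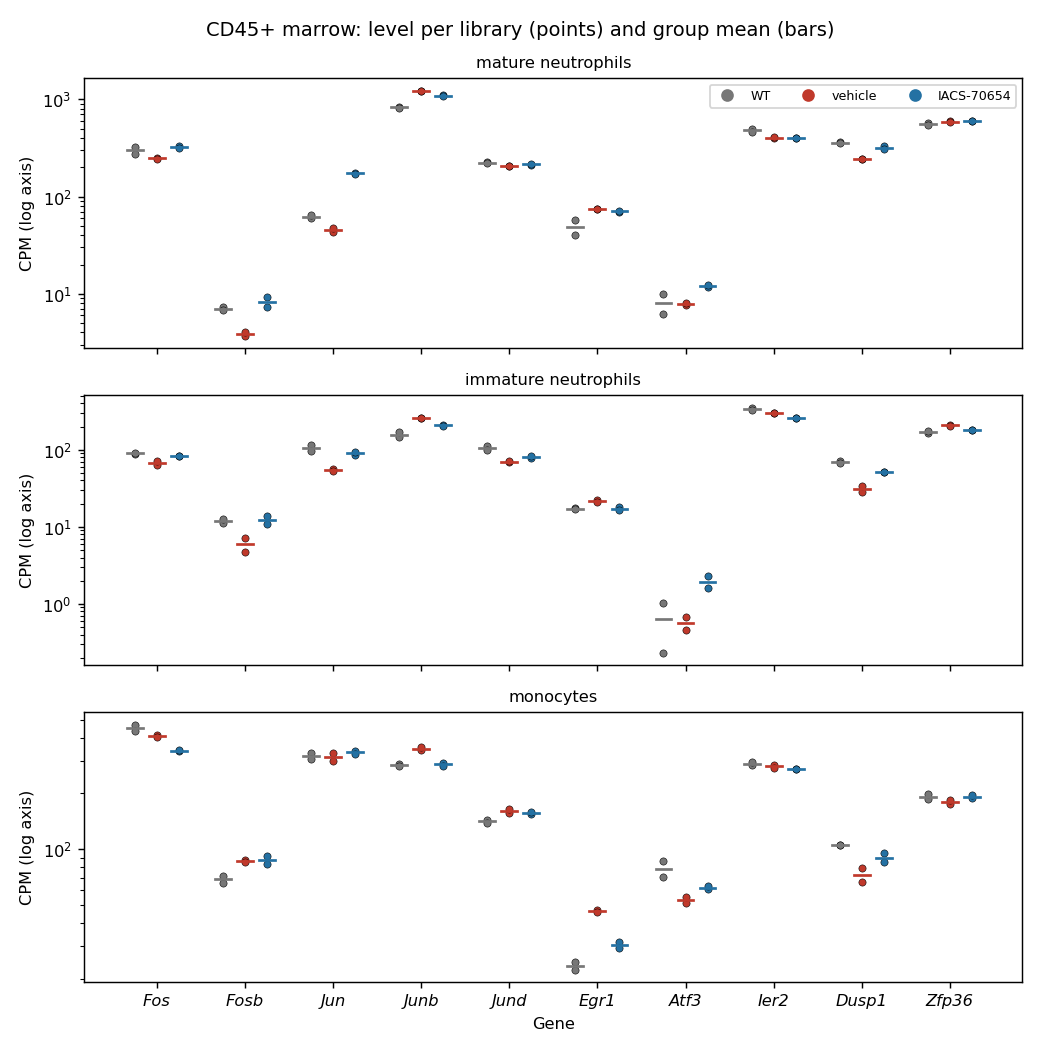
CPM of the 10 genes (log axis) in mature neutrophils, immature neutrophils and monocytes of CD45+ marrow, with 1 point per library, colored by group, and bars at the mean of 2 libraries. Jun in mature neutrophils lies at 172 to 175 CPM after IACS-70654 and at 43.3 to 64.7 in the other 4 libraries, and Junb lies above WT in vehicle libraries.

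Most mature neutrophils lay in the same clusters in WT and vehicle mice and in other clusters after IACS-70654. Cluster 0 (led by Retnlg and Prok2) held 52.4% of them in WT and 37.9% in vehicle mice, and cluster 1 (Cd101 and Sycp2) held 36.6% and 37.8%, whereas 62.8% were in cluster 3 (Stfa2 and Ifitm1) and 28.4% in cluster 4 (Il1b and Igfbp6) after IACS-70654. Jun was therefore read within clusters. In cluster 0 it was 22.8 and 34.0 CPM under vehicle against 99.5 and 91.7 after IACS-70654.

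Cluster 1 gave 51.6 and 45.1 against 240 and 231 CPM, cluster 3 gave 45.4 and 41.9 (on 7 and 8 UMIs) against 139 and 133, and cluster 9 (interferon-induced genes such as Rsad2) gave 42.9 and 50.03 against 225 and 299. In cluster 4 the vehicle values were already 210 and 213 CPM, and those after IACS-70654 were 344 and 345. Jun was thus higher after IACS-70654 within each of the 5 clusters, with no overlap, although clusters 0, 1 and 9 each held under 5% of the treated cells. Junb was likewise higher in vehicle than WT libraries within cluster 0 (677 and 676 against 493 and 494 CPM), whereas Egr1 overlapped there (26.3 and 28.5 against 32.2 and 23.6 CPM).

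**Figure D3:**
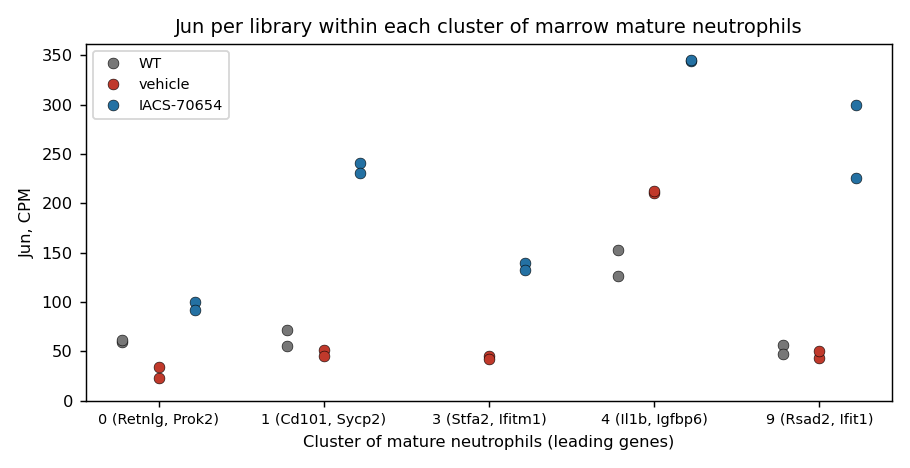
CPM of Jun (linear axis) within the 5 clusters of mature neutrophils, with 1 point per library for WT, vehicle and IACS-70654 groups; cluster labels give their leading genes. In each cluster both IACS-70654 points lie above the vehicle points, and cluster 4 is highest in every group.

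The heat shock sum in mature neutrophils was 632 to 650 CPM in WT, 618 to 648 in vehicle and 783 to 789 in IACS-70654 libraries, and the mitochondrial share of UMIs was 0.386% to 0.397%, 0.540% to 0.544% and 0.684% to 0.699%. Both moved with treatment, and their part in the Jun difference was not tested. Scaling by library totals in place of edgeR's TMM factors moved the median of all genes by 0.27 in this comparison and left Jun called. The shift was 0.24 in immature neutrophils with treatment, and -0.12, -0.23 and -0.15 in mature, immature and early neutrophils with the tumor; changes are given relative to it. In c-Kit+ marrow it reached 0.13 in basophil and mast cell progenitors and 0.23 in plasma cells with treatment.

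In immature neutrophils, Junb and Jun moved apart with the tumor. Junb was 145 and 169 CPM in WT libraries, 257 and 262 under vehicle and 212 and 204 after IACS-70654, with log2 changes of 0.96 (SE 0.05) and -0.57 (SE 0.04). With library totals the second was -0.32 and no longer called. Jun was 115 and 96.6 CPM in WT libraries, 56.4 and 52.5 under vehicle and 86.7 and 93.5 after IACS-70654, and its fall with the tumor was -0.74 (SE 0.08, edgeR adjusted p = 2.981e-10).

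Dusp1 fell along with Jun, from 72.1 and 67.5 CPM in WT to 28.2 and 33.8 in vehicle libraries (-0.93, SE 0.09), and stood at 51.4 and 51.7 after IACS-70654. The vehicle libraries were lowest for both genes, and no groups overlapped. Zfp36, which destabilizes AU-rich transcripts, and Egr1 were also called higher in vehicle mice (0.51 and 0.55), just past the fold threshold. The call of Zfp36 was lost without WT library 1 (0.48) or vehicle library 1 (0.49), and that of Egr1 without WT library 1, WT library 2 or vehicle library 1 (edgeR adjusted p = 0.0297, 0.0237 and 0.0235). Library totals ended both calls (0.28 and 0.32), DESeq2 that of Egr1 and a clustering resolution of 0.5 that of Zfp36.

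After IACS-70654, Fosb rose by 0.80 and Egr1 fell by 0.57 on the log2 scale. The Fosb call was lost without vehicle library 1 (0.56, edgeR adjusted p = 0.0213) or IACS-70654 library 2 (0.61, 0.0166 by the same test), and with DESeq2. The Egr1 call was lost with DESeq2 (-0.58, adjusted p = 0.0117), library totals (-0.33) and resolution 0.5 (-0.42). Altogether 5 of 10 members were called with the tumor (5.52% of genes) and 3 of 10 with treatment (14.1%). Cluster 2 (Tmem45a2 and Zmpste24) held 94.5% of the class in WT and 88.5% in vehicle mice, while clusters 5 and 8 (Stfa3, Cstdc6 and Cstdc5) held 53.3% and 40.6% after IACS-70654. The treated and vehicle cells of this class were thus largely different clusters. Within cluster 2, Junb was lower after IACS-70654 than under vehicle, at 154 and 178 against 231 and 235 CPM, whereas Egr1 was higher, at 29.8 and 27.1 CPM (on 11 and 12 UMIs) against 20.9 and 21.05. Within cluster 5 Egr1 was lower after IACS-70654, at 17.5 and 15.6 CPM against 21.5 and 24.0 (on 6 and 11 UMIs), and in cluster 8 the groups overlapped. Fosb after IACS-70654 was 15.9 and 21.1 CPM in cluster 8, where vehicle had 1 UMI in each library, but 6.34 and 6.02 CPM in cluster 5, which overlapped the vehicle values of that cluster (7.17 and 0 CPM, on 2 and 0 UMIs) and of cluster 2 (4.77 and 7.45). Within cluster 2, Fosb after IACS-70654 was 13.53 and 13.55 CPM (on 5 and 6 UMIs), above the vehicle values.

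In early neutrophils, the granule-producing precursors, 4 of 9 members tested were called higher in vehicle than WT libraries (3.68% of genes were called in either direction). Junb led, at 80.4 and 84.9 CPM in WT libraries, 140 and 148 under vehicle and 96.0 and 107 after IACS-70654, a log2 change of 0.95 (SE 0.07). Egr1 (0.88), Fosb (0.68) and Zfp36 (0.56) followed. Without WT library 1 the calls of Egr1 (0.60, edgeR adjusted p = 0.0155), Fosb (0.60, 0.0509) and Zfp36 (0.45) were lost, and that of Fosb also without WT library 2 (0.78, edgeR adjusted p = 0.0167) or vehicle library 1 (0.48, 0.0856). Fosb was also not called with DESeq2 or all barcodes, and neither Fosb (0.54) nor Zfp36 (0.41) with library totals.

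Early neutrophils had 6 of 9 members called lower after IACS-70654 than under vehicle (24.2% of genes were called in either direction). These were Junb (-0.79), Jund (-0.63), Egr1 (-0.89), Ier2 (-0.72), Zfp36 (-0.71) and Dusp1 (-0.52). Values within the clusters of this class are not given here. With library totals the median of all genes moved by 0.29, and 5 of these calls were lost, all but Egr1. That of Dusp1 was also lost without vehicle library 1 (-0.48) or IACS-70654 library 1 (-0.46). The makeup of the class shifted alongside: the sum of 9 early neutrophil markers (granule and cell cycle genes) was 10320 to 11510 CPM in vehicle and 25850 to 25970 in IACS-70654 libraries, that of 8 immature neutrophil markers 86090 to 90680 and 38740 to 38940, and that of the heat shock genes 1374 to 1474 and 2657 to 2677. Their part in the falls was not tested.

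In monocytes, 3 of 10 members were called with the tumor (0.929% of genes) and 1 with treatment (5.79%). Egr1, a factor tied to monocyte and macrophage differentiation, was 22.5 and 24.7 CPM in WT libraries, 47.3 and 45.7 under vehicle and 31.5 and 29.3 after IACS-70654. Vehicle lay highest in each comparison, with log2 changes of 0.96 (SE 0.13) and -0.61 (SE 0.11). The second was not called with DESeq2 (-0.60, adjusted p = 0.0115). Within cluster 6 of the class, Egr1 was 40.5 and 39.1 CPM under vehicle and 37.0 and 36.8 after IACS-70654. Within cluster 10 it was 51.1 and 49.5 against 27.8 and 24.6 CPM.

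Atf3, a repressor of inflammatory genes, was 86.5 and 70.8 CPM in WT libraries and 51.5 and 55.3 under vehicle (-0.56, SE 0.11), and Dusp1 was 106 and 105 against 66.8 and 78.8 (-0.55, SE 0.09). The Atf3 call was lost without WT library 1 (-0.42, edgeR adjusted p = 0.0513) or vehicle library 1 (-0.52, 0.0242), and that of Dusp1 without vehicle library 1 (-0.44). Within cluster 6 Atf3 and Dusp1 were lower under vehicle than in WT libraries without overlap. Within cluster 10 both overlapped, as for Atf3 at 36.4 and 28.0 against 47.2 and 29.2 CPM. Jun, by contrast with mature neutrophils, was 298 and 329 CPM under vehicle against 338 and 327 after IACS-70654 in monocytes.

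B cells of the marrow gave 4 of 9 members called with treatment (10.1% of genes). Fosb, an AP-1 subunit of the Fos family, was 67.0 and 51.8 CPM in WT libraries, 48.4 and 28.9 under vehicle and 164 and 119 after IACS-70654. The treated libraries lay above all others, with a log2 change of 1.87 (SE 0.27, edgeR adjusted p = 9.677e-06) that stayed called under all 14 alternatives (1.51 to 2.56). None of these alternatives held B cell stage fixed, and the stages differed between groups, as described below. Egr1 (1.13) and Ier2 (0.75) were called higher and Jund lower (-0.51).

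All 4 calls rested on few cells, 156 and 177 under vehicle and 47 and 101 after IACS-70654. Egr1 lost its call without vehicle library 2, IACS-70654 library 1 or IACS-70654 library 2 (edgeR adjusted p = 0.0449, 0.0168 and 0.0532), and with the replicate block. Ier2 lost it without either WT library, vehicle library 1 or IACS-70654 library 2 (0.0109, 0.0102, 0.0292 and 0.285 by the same test), and Jund without either WT library, vehicle library 2 or IACS-70654 library 1 (0.011, 0.0102, 0.0166 and 0.0171). DESeq2 called none of Egr1, Ier2 and Jund, with doublets removed neither Egr1 nor Jund was called, and Egr1 was lost with all barcodes and Jund at resolution 0.5.

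The B cell stages differed as well. Cluster 18 (Bank1, Cd74 and Ighd, mature B cell genes) held 72.3% of B cells after IACS-70654 and 16.8% in WT mice, and under 5% in vehicle mice. Within cluster 18 Fosb was 206 and 166 CPM in WT and 319 and 177 in IACS-70654 libraries, and no vehicle value was set beside them. In WT libraries Fosb was only 11.9 to 67.7 CPM in clusters 15, 16, 22 and 25 of the class. Under vehicle it was 7.32 to 50.05 CPM in clusters 15, 16 and 22, on 1 to 11 UMIs. The part of this shift between clusters in the Fosb difference was not tested. The sum of 8 B cell markers was 14240 to 14600 CPM in WT, 13650 to 14700 under vehicle and 9934 to 10350 after IACS-70654, and that of the immature neutrophil markers in the same cells 7175 to 9227, 9616 to 10180 and 10970 to 14050 CPM. Their part in the B cell differences was not tested. Between vehicle and WT B cells, edgeR called 0 of 9 members (1.21% of genes were called), with 1 higher and 1 lower at an unadjusted p under 0.05 and 0 by DESeq2.

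The other CD45+ classes (T and NK cells, basophils and mast cells, plasmacytoid dendritic cells, and stem and multipotent cells) and 3 c-Kit+ classes (lymphoid-primed cells, monocyte progenitors and plasma cells) had 0 members called by edgeR in either comparison and 0 by DESeq2. Of all genes tested, the shares called with the tumor and with treatment were 1.07% and 0.645% in T and NK cells, 0.0793% and 0.931% in basophils and mast cells, 0.0% and 0.394% in plasmacytoid dendritic cells and 0.0116% and 0.151% in CD45+ stem and multipotent cells. They were 0.0976% and 2.42% in lymphoid-primed cells, 1.27% and 6.01% in monocyte progenitors and 0.034% and 0.068% in plasma cells, so that 0 of 8 to 10 members is near the background in each. At an unadjusted p under 0.05 they had 0 to 3 members per comparison and direction, except for 4 lower in monocyte progenitors and 6 lower in plasma cells after IACS-70654. In plasma cells 1 member was higher at that level. The median log2 change there after IACS-70654 was -0.67 over the members and 0.01 over all genes. A count of 0 calls therefore does not show that the members were unchanged.

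The change with treatment was also compared directly between classes, as an interaction of class and group. In CD45+ marrow this was done for mature neutrophils with monocytes and for mature neutrophils with B cells. For Jun, the log2 change in monocytes was 1.56 lower than in mature neutrophils (value -1.56, SE 0.07, edgeR adjusted p = 6.253e-37). In B cells the change of Jun was also lower than in mature neutrophils (-1.78, SE 0.16, edgeR adjusted p = 2.772e-26). Monocytes and B cells were not tested against each other. For Egr1 the change in B cells exceeded that in mature neutrophils by 1.45 (SE 0.29, edgeR adjusted p = 1.76e-05).

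Among lineage- c-Kit+ cells, megakaryocyte progenitors stood out for the number of members involved. Between vehicle and WT libraries 8 of 10 members were called, all lower (1.48% of genes were called in either direction), and between IACS-70654 and vehicle libraries 5 of 10, all higher (7.98%). The median log2 change over the members was -1.03 and 0.56, against 0.00 and 0.01 for all genes. The class held 393 and 326 cells in WT, 315 and 127 under vehicle and 654 and 396 after IACS-70654.

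Fos was 102 and 113 CPM in WT libraries, 35.8 and 39.9 under vehicle and 61.4 and 70.0 after IACS-70654. Its fall with the tumor was -1.56 (SE 0.14, edgeR adjusted p = 2.579e-13) and its rise with treatment 0.73 (SE 0.15, edgeR adjusted p = 0.0001251). The rise lost its call without vehicle library 1, the larger of the vehicle pair (0.63, edgeR adjusted p = 0.0704).

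Jun was 640 and 639 CPM in WT libraries, 272 and 324 under vehicle and 553 and 485 after IACS-70654, with log2 changes of -1.18 (SE 0.06) and 0.78 (SE 0.07). Ier2, an early gene with nuclear functions, was 238 and 270, then 110 and 122, then 207 and 216 CPM (-1.18 and 0.82). Vehicle libraries were lowest for each of these genes, with no overlap between groups, and the 4 calls of Jun and Ier2 held under all 14 alternatives.

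Egr1 was 111 and 133 CPM in WT libraries and 59.6 and 62.8 under vehicle (-1.03, SE 0.12) and 91.5 and 72.6 after IACS-70654. Dusp1 was 34.8 and 40.7 in WT, 20.1 and 14.96 in vehicle and 39.9 and 33.7 CPM in IACS-70654 libraries (-1.03 and 0.93). The Dusp1 calls were lost without vehicle library 1 (-1.36, edgeR adjusted p = 0.0104) and without IACS-70654 library 1 (0.77, 0.0267), respectively, and both with DESeq2.

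Jund (-0.55) and Fosb (-0.60) also fell with the tumor, and the Fosb call was lost without either WT library or vehicle library 1 (edgeR adjusted p = 0.0307, 0.0187 and 0.24), with DESeq2 and at resolution 0.5. Atf3 had 26 and 14 UMIs in WT, 4 and 0 under vehicle and 27 and 18 after IACS-70654. Its ratio of WT to vehicle was 7.43 (95% interval 2.68 to 28.6, exact, counting error only) and of IACS-70654 to vehicle 7.76 (2.83 to 29.7). Both differences were called, but the first not without WT library 1 or either vehicle library (edgeR adjusted p = 0.067, 0.0217 and 0.0129) or at resolution 0.5.

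Junb, raised with the tumor in neutrophils, was 118 and 129 CPM in WT and 118 and 117 in vehicle megakaryocyte progenitors.

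**Figure D4:**
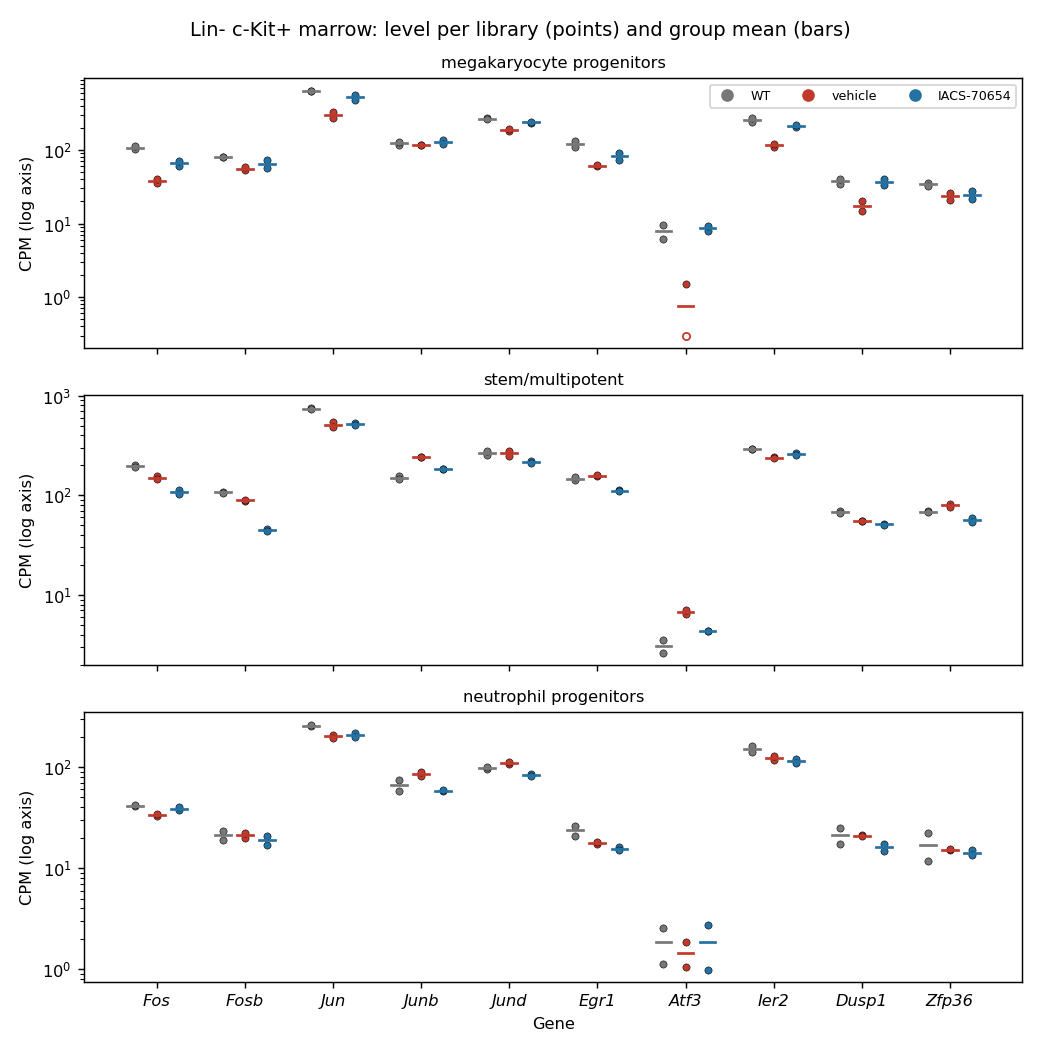
CPM of the 10 genes (log axis) in megakaryocyte progenitors, stem and multipotent cells and neutrophil progenitors of c-Kit+ marrow, with 1 point per library and bars at the mean of 2 libraries. Libraries with 0 UMIs, such as vehicle 2 for Atf3 in megakaryocyte progenitors, are drawn as open symbols at the foot of the axis. In megakaryocyte progenitors both vehicle points lie below WT for Fos, Jun, Egr1, Ier2 and Dusp1.

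This class was made of 3 clusters in unequal shares. Cluster 8 (Med12l among its leading genes) held 65.1% of the class in WT, 39.4% in vehicle and 72.0% in IACS-70654 mice, cluster 16 (Pf4 and Cavin2) 17.9%, 37.3% and 13.6%, and cluster 19 (Pf4 and Trpc6) 17.0%, 23.3% and 14.4%. Within cluster 8, Jun was 864 and 805 CPM in WT libraries, 253 and 433 under vehicle and 689 and 559 after IACS-70654. Cluster 16 gave 392.4 and 423, then 283 and 296, then 355 and 328 CPM, and cluster 19 gave 475 and 513, then 267 and 265, then 396 and 455 CPM.

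The vehicle libraries were lowest for Jun in each cluster, with no overlap. Against WT, Fos, Ier2 and Atf3 were also lower under vehicle in all 3 clusters without overlap, Atf3 on at most 13 UMIs per library and cluster, as for Fos at 32.7 and 35.8 against 49.6 and 55.6 CPM in cluster 16. The other falls were not alike in all clusters. Fosb was lower in clusters 8 and 19 but higher in cluster 16, at 61.7 and 76.4 CPM under vehicle against 46.2 and 50.6 in WT libraries. Egr1 was lower in cluster 8 (86.8 and 124 against 184 and 210 CPM) and overlapped in clusters 16 and 19, as did Dusp1, and Jund overlapped in cluster 19. Fos within cluster 8 was 144 and 164 CPM in WT libraries, 50.5 and 76.4 under vehicle and 72.2 and 92.2 after IACS-70654, where vehicle and IACS-70654 overlapped. The heat shock sum was 6426 to 6456 CPM in WT, 6678 to 6701 in vehicle and 4806 to 5008 in IACS-70654 libraries and was highest under vehicle, where these members were lowest. The megakaryocyte marker sum was 4360 to 4555, 6393 to 6447 and 5148 to 5172 CPM in the same order of groups, that of 8 macrophage markers 681 to 758, 361 to 418 and 160 to 183 CPM, and the mitochondrial share 2.63% to 2.72%, 3.17% to 3.25% and 2.88% to 2.90%. Their part in the members' differences was not tested. Thinned to 1000 UMIs per cell, 1.41 to 1.44 members were seen per WT cell, 0.686 to 0.952 per vehicle cell and 1.14 to 1.18 per IACS-70654 cell. Ep300, which encodes the P300 target of the drug, was called higher after treatment in this class (0.72, SE 0.14, 83.3 against 45.4 CPM).

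In stem and multipotent cells, Fosb fell with IACS-70654. It was 109 and 106 CPM in WT libraries, 88.3 and 90.0 under vehicle and 46.2 and 43.6 after IACS-70654, and the treated libraries lay below all others. The log2 change from vehicle was -0.98 (SE 0.08, edgeR adjusted p = 1.155e-24), called under all 14 alternatives (-1.03 to -0.94). It was lower in both clusters of the class, at 51.0 and 39.5 against 31.9 and 23.2 CPM in cluster 0 and at 122 and 140 against 70.2 and 77.9 in cluster 1.

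Jun was 756 and 726 CPM in WT libraries, 539 and 484 under vehicle and 529 and 505 after IACS-70654, a fall with the tumor of -0.56 (SE 0.04). Junb was 155 and 147, 241 and 241, and 183 and 184 CPM in the same order, a rise with the tumor of 0.63 (SE 0.07). As in immature neutrophils, Jun was lower and Junb higher in tumor-bearing mice, without overlap. Egr1 and Zfp36 were called lower after IACS-70654 at the fold threshold (both -0.50). The Egr1 call was lost without either WT library (-0.497) or vehicle library 2 (-0.475), and that of Zfp36 without either WT library (-0.498), vehicle library 1 (-0.45) or IACS-70654 library 2 (-0.45). Both were also under the threshold with library totals, with no filter, with all barcodes and at resolution 0.5 (-0.50 to -0.42), and Egr1 with doublets removed.

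Altogether 2 of 10 members were called with the tumor in this class (0.983% of genes) and 3 of 10 with treatment (4.97%). In neutrophil progenitors, 1 of 10 was called with treatment (7.07%): Junb, at 58.2 and 74.8 CPM in WT libraries, 81.1 and 89.0 under vehicle and 58.2 and 58.9 after IACS-70654 (-0.57, SE 0.06). At resolution 0.5 it was -0.48 and not called. Cluster 4 (S100a9 and S100a8) held 57.7% of the class under vehicle and 22.3% after IACS-70654, and cluster 3 (Cebpe and Elane among its leading genes) 27.2% and 63.0%. Within each of its 3 clusters Junb was lower after IACS-70654 without overlap, as in cluster 4 at 54.6 and 64.1 against 81.9 and 86.1 CPM. With the tumor, edgeR called 0 of 10 there (1.7% of genes were called), with 1 higher and 4 lower at an unadjusted p under 0.05 and 0 by DESeq2. The response of Fosb to treatment differed between the classes when tested directly, by 0.83 (SE 0.13, neutrophil progenitors less stem and multipotent cells, edgeR adjusted p = 3.509e-07), and that of Fos by 0.64 (SE 0.10, edgeR adjusted p = 2.677e-07). Without vehicle library 1 neither was called (0.765 and 0.542, edgeR adjusted p = 0.0111 and 0.0368), nor Fosb without IACS-70654 library 1 (0.682, edgeR adjusted p = 0.0228).

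In erythroid progenitors 0.604% of genes were called with the tumor and 7.15% with treatment, and in basophil and mast cell progenitors 1.52% and 9.66%. Erythroid progenitors had 11.5 and 12.2 CPM of Fos in vehicle against 22.4 and 20.8 in WT libraries (-0.89, SE 0.14), and higher Jun (0.55) and Egr1 (0.68) after IACS-70654. All of these calls were lost without vehicle library 1 (-0.83, edgeR adjusted p = 0.0304; 0.50; and 0.51, 0.0288 by the same test), and those of Jun and Egr1 also at resolution 0.5 (0.39 and 0.30). Basophil and mast cell progenitors had lower Fos (-0.65) and Jun (-0.54) with the tumor, and lower Fosb (-0.73) and higher Zfp36 (0.73) with treatment. Without vehicle library 2 Jun was at -0.45, without IACS-70654 library 1 Fosb was at -0.55 (edgeR adjusted p = 0.0546), and Zfp36 lost its call without vehicle library 1 or either IACS-70654 library (0.0914, 0.0687 and 0.0262), with DESeq2 or with no filter. The class changed in makeup, with 61.3% of vehicle cells in cluster 12 and 28.5% in cluster 14, against 17.7% and 78.2% after IACS-70654.

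Tumors had 1 library per condition, so their differences have no replicate check and no test; ratios are given with exact 95% intervals that cover counting error only. A member was counted as past the fold at a log2 ratio over 0.5 in size with at least 20 UMIs in the pair. Over 10 members in each of 4 classes, IACS-70654 against vehicle gave 6 higher (16.9% of all genes and classes) and 2 lower (11.8%), the combination against anti-PD-1 gave 10 higher (15.9%) and 1 lower (13.2%), and anti-PD-1 against vehicle gave 1 higher (9.33%) and 1 lower (6.87%). The last count was 6 with doublets removed, 2 after thinning and 0 at resolution 0.5, and TMM scaling gave 4 lower in the first pair and 2 in the second. With the reported settings, all counts but the 10 higher lay below the shares of all genes. They say nothing particular about the members as a group.

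In TANs, Fosb was 292 CPM under vehicle, 504 under IACS-70654, 347 under anti-PD-1 and 521 under the combination. It was higher in both libraries with IACS-70654, with log2 ratios of 0.79 (0.48 to 1.09) and 0.59 (0.32 to 0.85), and higher within cluster 3 (350 against 591, and 381 against 570 CPM) and cluster 7 (220 against 435, and 294 against 459 CPM). Egr1 was 2664, 2412, 3217 and 2085 CPM in the same order of conditions, past the fold only between the combination and anti-PD-1 (-0.63, -0.74 to -0.51). Jun, called higher after IACS-70654 in mature marrow neutrophils, was 1637 CPM under vehicle and 1773 under IACS-70654 in TANs, with a log2 ratio of 0.12 (-0.03 to 0.26) that turned to -0.04 with TMM scaling. That scaling moved all TAN ratios by -0.16 for IACS-70654 against vehicle and by -0.18 for the combination against anti-PD-1, where it took Fosb under the fold (0.41). It took Dusp1 under IACS-70654 (-0.58) and Fos under the combination (-0.56) past the fold in TANs.

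T and NK cells of the tumor gave most of the ratios past the fold, 5 of 10 members higher under IACS-70654 (22.4% of genes) and 7 of 10 under the combination (20.2%). Atf3 was 129 and 358 CPM under vehicle and IACS-70654 (1.47, 0.79 to 2.19, on 25 and 71 UMIs), Fosb 207 and 499 (1.27, 0.73 to 1.84) and Zfp36 186 and 388 (1.06, 0.47 to 1.67). Jund (0.61) and Fos (0.53) were also higher, and Ier2 (-0.56) and Egr1 (-0.83, on 38 and 22 UMIs) lower. At resolution 0.5 the Egr1 ratio turned to 0.454.

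Under the combination against anti-PD-1, Fos was 1161 against 597 CPM (0.96, 0.69 to 1.23), Dusp1 572 against 321 (0.83) and Jun 813 against 461 (0.82), with Atf3, Fosb, Zfp36 and Jund at 0.54 to 0.71. Between anti-PD-1 and vehicle, Fosb was 388 against 207 CPM (0.90, 0.37 to 1.46) and Ier2 510 against 797 (-0.64, -0.98 to -0.31). These sums came from 79 to 117 cells per library. Their makeup differed: cluster 16 (Cd3g and Trbc2) held 50.6% of the class under vehicle, 79.7% under IACS-70654, 51.9% under anti-PD-1 and 75.2% under the combination. Cluster 26 (Lef1 and Satb1 among its leading genes) held 43.4% under vehicle and 41.7% under anti-PD-1 and less than 5% in the others.

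Within cluster 16, Fos was 477 against 734 CPM under vehicle and IACS-70654, and 605 against 704 under anti-PD-1 and the combination, while Fosb was 159 against 274 and 395.0 against 364. In the second pair Dusp1 was higher there too (364 against 494) but Jun (395.0 against 301.5) and Atf3 (148 against 134) were lower, while Atf3 was higher there in the first pair (131 against 299). Cluster 31 (Il17a and Trdc among its leading genes) held 28 cells and 23.9% of the class under the combination and 6.48% under anti-PD-1. Those 28 cells gave 181 of the 253 Jun UMIs of the class under the combination (2662 CPM within the cluster), 176 of 361 Fos UMIs and 107 of 196 Fosb UMIs. The sum of 8 macrophage markers in the same T and NK cells was 2054 CPM under vehicle and 7254 under IACS-70654, and 1508 under anti-PD-1 and 4780 under the combination, with at most 2 of the 8 at 0. Its part in these ratios was not tested.

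In TAMs, Egr1 was higher under the combination than under anti-PD-1 (258 against 166 CPM, 0.64, 0.53 to 0.76) and no other member passed the fold, with Fosb just past it under TMM scaling (0.51). In tumor cells Atf3 was 1134 against 720 CPM in that pair (0.66, 0.61 to 0.70). Fos in tumor cells was 2100 CPM under vehicle, 1556 under IACS-70654, 2049 under anti-PD-1 and 1603 under the combination, at log2 ratios of -0.43 and -0.35 that did not reach the fold. With TMM scaling, which moved tumor cell ratios by -0.10 under IACS-70654, the first was -0.53 and past it. It was lower under IACS-70654 within each of clusters 6, 8, 9 and 10, as in cluster 8 at 2765 against 1884 CPM. Cluster 12 (Tesc and Igfbp2), which held 31.3% of vehicle and 34.0% of anti-PD-1 tumor cells, held under 5% in both other libraries.

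**Figure D5:**
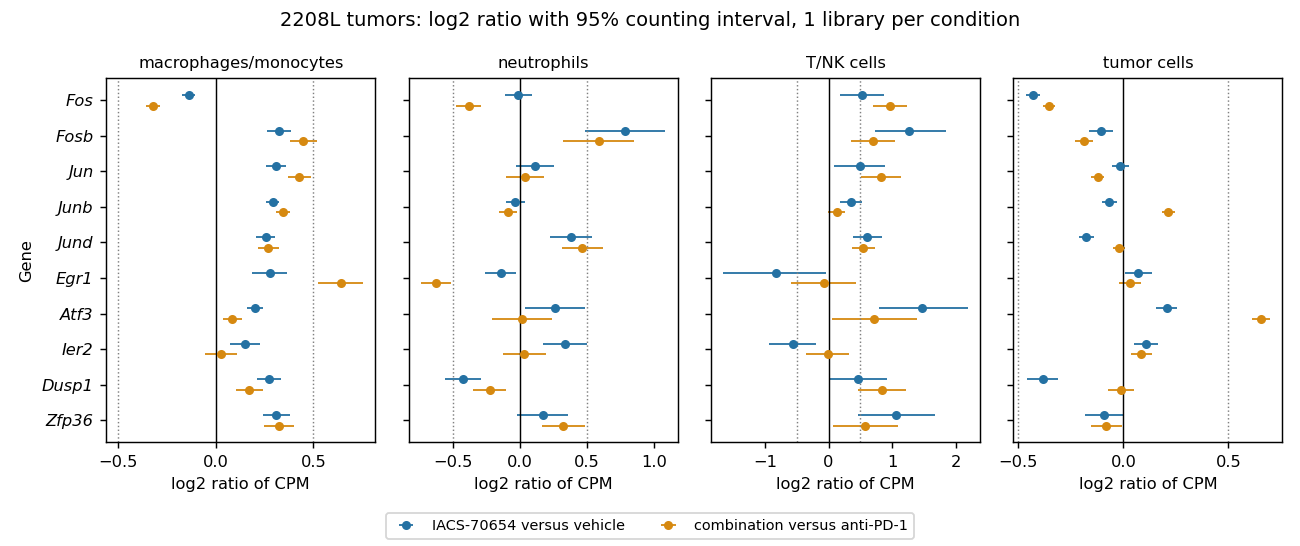
Log2 ratio of CPM (x axis) for each gene (y axis) in macrophages and monocytes, neutrophils, T and NK cells and tumor cells of 2208L tumors, for IACS-70654 over vehicle and the combination over anti-PD-1; points are ratios of 1 library to 1 library, lines exact 95% counting intervals, and dotted lines the fold threshold of 0.5. Fosb in neutrophils lies at 0.79 and 0.59, and Atf3 in T and NK cells at 1.47 and 0.71, although within cluster 16 of that class Atf3 was 148 CPM under anti-PD-1 and 134 under the combination.

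Lists of related genes gave the setting, and the shares of all gene and class tests given with the members' counts are the background for theirs. Of 15 other AP-1 and bZIP genes, 3 gene and class pairs of 74 tested in CD45+ marrow were called higher with the tumor, and with treatment 3 were called higher and 13 lower. Fosl1, a further Fos family subunit, was called higher in early neutrophils of vehicle mice (0.87) and lower after IACS-70654 (-1.01). In c-Kit+ marrow this list had 1 pair of 69 higher and 2 lower with treatment and 0 in either direction with the tumor by edgeR, where 3 higher and 10 lower had an unadjusted p under 0.05 and DESeq2 called 0. In tumors 11 of 46 pairs were past the fold higher and 2 lower under IACS-70654, 13 and 5 of 50 under the combination, and 2 and 3 of 47 under anti-PD-1.

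Of 32 other immediate early genes, 21 of 197 pairs in CD45+ marrow were called higher and 5 lower with the tumor, and 14 and 14 with treatment. Socs3, the feedback inhibitor of JAK and STAT signaling, was higher with the tumor in monocytes (2.03, 10.5 against 2.53 CPM) and immature neutrophils (1.99). It was also higher in stem and multipotent cells of c-Kit+ marrow (1.89). Klf2 was lower in T and NK cells of CD45+ marrow (-1.92). With treatment, Klf4 rose in mature neutrophils (1.37, 8.92 against 2.79 CPM), Myc rose in early neutrophils (1.40) and Gadd45g fell there (-1.40). In c-Kit+ marrow 12 of 181 pairs were higher and 10 lower with the tumor, and 20 and 9 with treatment. In TANs, Egr2 (1.89), Klf4 (1.85, 223 against 61.7 CPM) and Nr4a2 (1.72) were higher under IACS-70654, among 32 of 118 pairs higher and 22 lower in tumors, with 29 and 17 of 120 under the combination and 6 and 9 of 118 under anti-PD-1.

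A list of 13 genes held MAP kinase phosphatases, other inhibitors of MAP kinase signaling and proteins that bind AU-rich RNA. Of its pairs in CD45+ marrow, 4 of 93 were called higher and 1 lower with the tumor, and 9 and 4 with treatment. Zfp36l1, the paralog of Zfp36, was 39.3 against 8.09 CPM in mature neutrophils of vehicle and WT mice (2.39, SE 0.14), while Zfp36 itself was 594 and 583 against 573 and 541 CPM. In c-Kit+ marrow 2 of 87 pairs were lower with the tumor, and 10 were higher and 4 lower with treatment. In tumors 11 of 44 were higher and 5 lower under IACS-70654, 8 and 6 of 45 under the combination, and 2 and 3 of 44 under anti-PD-1.

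The 16 upstream factors included Srf, the CREB family, MAP kinases and the drug's targets Crebbp and Ep300. With treatment, 2 of 128 pairs were called higher and 2 lower in CD45+ marrow, with Elk3, a partner of SRF, higher in early neutrophils (0.83), and 3 of 113 were higher in c-Kit+ marrow. With the tumor, edgeR called 0 of 128 in CD45+ marrow (11 higher and 16 lower at an unadjusted p under 0.05, 0 by DESeq2) and 1 of 113 in c-Kit+ marrow. In tumors 10 of 56 were higher and 2 lower under IACS-70654, 8 of 58 higher under the combination, and 6 and 2 of 57 under anti-PD-1. Of 88 pairs of heat shock genes in CD45+ marrow, 16 were higher and 1 lower with treatment, led by Hspa1a in mature neutrophils (1.93), and with the tumor edgeR called 0, with 14 higher and 6 lower at an unadjusted p under 0.05 and 0 by DESeq2. In c-Kit+ marrow 2 of 88 were higher with the tumor, and 5 were higher and 10 lower with treatment. In tumors 3 of 40 were higher and 2 lower under IACS-70654, 3 and 6 of 42 under the combination, and 5 and 2 of 42 under anti-PD-1.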

How the data were processed

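Single-cell RNA was measured in 16 libraries. The authors deposited raw UMI count matrices made with Cell Ranger 7.1.0 (tumors) and 7.2.0 (marrow) against mm10; the submitters' processing notes also name Seurat. The labels describe multiplexed 3′ and 5′ libraries without saying which library is which. Members, gene lists and classes were chosen with earlier results of these data known, and groups were taken from GEO's labels.

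Cells with 200 to 6000 genes and at most 10% mitochondrial UMIs were kept. Within each sort, 2000 variable genes and 30 principal components were clustered (scanpy 1.11.5, leidenalg 0.10.2, resolution 1), without batch integration, and clusters with at least 3 detected markers of a fixed list were named. No doublet caller was used in the reported values; an alternative left out the 5% of cells per library with the highest Scrublet score. Deposited counts were summed per library and class (at least 20 cells in every marrow library, 50 in every tumor library) and fitted over the 6 libraries of a sort with edgeR 4.0.16 (R 4.3.3, quasi-likelihood test, TMM scaling, filter on low counts); p-values were Benjamini-Hochberg adjusted over all genes of a class. Atf3 was left untested by the filter in 9 of 17 marrow classes and Egr1 in 1. CPM is scaled by class totals, so a ratio of CPM can differ from a TMM-scaled change. Alternatives were DESeq2 1.42.0, library totals, no filter, a replicate block, each library left out, all barcodes, no doublets, resolution 0.5 and thinning to 1000 UMIs per cell. The replicate numbers did not pair the libraries (correlation of same-numbered deviations -0.033 to 0.026). On simulated counts with 200 genes changed by a log2 value of 1, 88% were recovered with 5 false calls (IACS-70654 against vehicle, mature neutrophils, 10993 genes) and 78% with 1 false call (stem and multipotent cells, 11576 genes). The changed genes had a mean of at least 20 UMIs, and all genes shared the same fixed spread. These rates therefore do not carry over to rarer members. Between libraries of a group, variation was 1.09 to 2.47 times counting noise by the median over genes. The chi-square per gene ran from 1.10 (stem and multipotent c-Kit+ cells after IACS-70654) to 13.1 (plasma cells after IACS-70654). Named genes were the 10 members, at most 4 per list and comparison by size among those called, and the 5 most alike in pattern. Not every gene the rule names is reported here.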

Additional observations from a re-analysis of the deposited data

Results flagged for a closer look

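The change of a gene between 2 groups differed between cell classes, by edgeR's test of the interaction, for 10 combinations of a member and a pair of classes in which the difference was also over 0.5 on the log2 scale. All 10 members were tested in both comparisons for mature neutrophils with monocytes, mature neutrophils with B cells, and stem and multipotent cells with neutrophil progenitors. The share of all genes that differed in this way is not given here, so the count has no background. With the tumor (vehicle against WT), the change of Fosb in monocytes exceeded that in mature neutrophils by 1.03 (edgeR adjusted p = 0.001624), and that of Egr1 in B cells was below that in mature neutrophils (-1.03, edgeR adjusted p = 0.0007932). With IACS-70654 against vehicle, the signed log2 changes of Jun (-1.56) and Fosb (-0.777, edgeR adjusted p = 0.001879) were lower in monocytes than in mature neutrophils. In B cells that of Jun was lower (-1.78) and those of Ier2 (0.999, edgeR adjusted p = 7.383e-06), Junb (0.652, edgeR adjusted p = 0.001255) and Egr1 (1.45) were higher than in mature neutrophils. For Junb the change was 0.26 in B cells, where it was not called, and -0.43 in mature neutrophils. In neutrophil progenitors, the changes of Fosb (0.832) and Fos (0.64) exceeded those in stem and multipotent cells. The differences of Jun and of Egr1 after IACS-70654 were called with each library left out. The others were not. The Egr1 change in B cells was itself called under 6 of 13 alternatives, and most treated B cells lay in a cluster that held few vehicle cells. Fosb between monocytes and mature neutrophils was lost with the tumor without WT library 1 (0.887, edgeR adjusted p = 0.0873) or vehicle library 1 (0.95, 0.02 by the same test), and with treatment without either vehicle library (-0.691 and -0.857) or IACS-70654 library 2 (-0.5). In B cells, Egr1 with the tumor was lost without WT library 2 (-0.536) or either vehicle library (-1.21 and -0.923), Ier2 without IACS-70654 library 2 (0.635), and Junb without either vehicle library (0.631 and 0.637) or IACS-70654 library 2 (0.458). In neutrophil progenitors, both were lost without vehicle library 1 (Fosb 0.765, Fos 0.542), and Fosb also without IACS-70654 library 1 (0.682).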

How the results depend on the processing

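Of 57 called pairs of member and class, 17 stayed called under every alternative and 30 with each library left out. Some pairs had no value under some alternatives and were counted over those that gave one. Atf3 in megakaryocyte progenitors after IACS-70654 had 12. With thinning to 1000 UMIs per cell, calls higher and lower with the tumor in CD45+ marrow fell from 10 to 5 and from 5 to 2, calls lower with treatment from 10 to 4, calls with the tumor in c-Kit+ marrow from 1 to 0 (by edgeR) and from 12 to 5, and calls with treatment there from 8 to 2 and from 5 to 2. This alternative holds fewer UMIs. With library totals, CD45+ calls were 6 higher and 8 lower with the tumor and 10 higher and 3 lower with treatment, and c-Kit+ calls lower with treatment were 3. DESeq2 gave 2 CD45+ and 5 c-Kit+ calls higher with treatment. Without the filter, 2 members were higher with the tumor in c-Kit+ marrow. All barcodes gave 3 and resolution 0.5 gave 2 lower c-Kit+ calls with treatment. With 1 library left out, the counts ran in CD45+ marrow from 5 to 11 and 2 to 6 with the tumor and 2 to 7 and 8 to 11 with treatment, and in c-Kit+ marrow from 1 to 2 and 8 to 12, then 5 to 8 and 3 to 6; the cause of these moves was not tested.

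With the replicate number as a block, 56 of 57 calls were made, and Egr1 in B cells after IACS-70654 was lost; the numbers did not pair the libraries.

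Differences between classes called with 1 library left out ran from 0 to 1 (tumor) and 1 to 2 (treatment) for monocytes, 0 to 1 and 3 to 5 for B cells, and 0 to 2 for neutrophil progenitors with treatment; library totals gave 4 for monocytes with treatment. In tumors, TMM scaling gave 4 members lower under IACS-70654 (Ier2 and Egr1 in T and NK cells, Dusp1 in TANs, Fos in tumor cells) and 2 under the combination (Egr1 and Fos in TANs), a minimum of 100 UMIs gave 1 lower under IACS-70654, and under anti-PD-1 2 were lower after thinning, 6 without doublets and 0 at resolution 0.5, each of 1 library a condition with no test. At resolution 0.5 Egr1 in T and NK cells under IACS-70654 turned to 0.454. Without thinning, the mean share of cells with a UMI over members and classes was 71.6% in tumors (48.0% thinned), 48.5% in CD45+ (16.1%) and 41.0% in c-Kit+ marrow (12.3%). The shares thus depend on depth, but kept their order at equal depth.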
